A study of Mus musculus with 32 samples.

Results

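The beta and gamma crystallins of the mouse were measured in eye, brain and heart of sighted C3H mice against C3H control mice. They were taken as every probe whose gene symbol starts with Cryba, Crybb or Cryg, which leaves the alpha crystallins out. The rule found 11 probes for 10 genes, among 9030 genes named on the array. RefSeq lists 14 genes of the family, and the array had no named probe for Cryga, Crygc, Cryge or Crybb1. Each array set RNA of sighted C3H mice against a pool of RNA from 6 control males that carry the Pde6b mutation of C3H, which causes loss of rods. The design text calls the sighted mice a seh mutant line and gives 6 males, while the labels do not give their age or their Pde6b allele. Controls of brain and heart were pooled from the same mice, and those of eye from other mice. There were 12 arrays of eye, 12 of brain and 8 of heart, with the dyes exchanged between arrays of odd and even number.

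Crystallins are the main soluble proteins of the lens fibre cells, where they are packed densely and are hardly replaced after the fibres lose their nuclei. The beta and gamma crystallins share a fold built of Greek key motifs, in which beta crystallins form oligomers and most gamma crystallins stay single. The beta group is divided into acidic members, named Cryba, and basic members, named Crybb. The genes Cryga to Crygf are expressed mainly in fibre cells before and soon after birth, Crygs goes on in the adult lens, and Crygn is a distant member that is also expressed in the retina.

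All values are log2 ratios, sighted over control, so that 1 is a doubling, and a replicate is the mean of 2 arrays of opposite dye. This gave 6 replicates in eye, 6 in brain and 4 in heart. The direction of the deposited ratio was read from the rod genes: their median was 4.84 to 5.45 on the eye arrays that had the sighted sample in Cy5 and -4.65 to -3.92 on those that had it in Cy3. All signs below rest on that reading, and since ratios hold no levels, the tissue labels could not be checked against markers of each tissue. Missing values made up 1.62 to 5.10% of an eye array, 1.01 to 5.05% of a brain array and 5.96 to 61.6% of a heart array. The 61.6% was that of heart array 7 alone, and the other heart arrays had 5.96 to 12.0%. Precision is limited by the number of arrays. Which arrays come from the same animal is not labelled, and p-values therefore cover only the spread between replicates as formed here, part of which may be technical.

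The promoters of the gamma crystallins are shown first because most of these genes sit close together and resemble each other. RefSeq sequences of assembly GRCm38.p6 were matched by symbol for all 10 genes with a probe. The 60 bases around the TATA motif next to the gene start are given 5′ to 3′ for members from both groups. Capitals mark motifs that were searched on both strands. Of these, TATATA is a form of the TATA box. The other form searched was TATAAA, and the forms can overlap. A further motif, CTTTTGT, resembles the sequence that Sox factors bind. The last was TGCTGA, one side of the element that Maf factors bind.
Crygf: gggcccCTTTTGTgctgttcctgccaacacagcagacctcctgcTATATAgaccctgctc
Crygd: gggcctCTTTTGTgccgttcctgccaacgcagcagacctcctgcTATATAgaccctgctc
Crygb: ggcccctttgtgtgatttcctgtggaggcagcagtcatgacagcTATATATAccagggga
Crygn: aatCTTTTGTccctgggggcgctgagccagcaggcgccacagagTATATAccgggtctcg
Cryba1: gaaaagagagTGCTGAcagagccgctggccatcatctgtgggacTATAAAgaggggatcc
Crygs: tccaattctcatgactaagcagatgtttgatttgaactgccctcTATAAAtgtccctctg
These windows lie at Crygf chr1:65926446-65926505, plus strand; Crygd chr1:65063455-65063514, minus strand; Crygb chr1:65082305-65082364, minus strand, and Crygn chr5:24757863-24757922, minus strand; Cryba1 chr11:77725301-77725360, minus strand; Crygs chr16:22811420-22811479, minus strand. Crygf and Crygd carried CTTTTGT and TATATA at the same spacing, and Crygb carried only the latter. TATATA stood in the promoters of 4 of the 10 members and in 5.67% of 32851 mouse promoters of the same length. CTTTTGT stood in 4 of 10 against 5.11%, TGCTGA in 6 of 10 against 19.5%, and TATAAA in 3 of 10 against 13.6%. Over the 300 bases around the start, Crygf was 75.3% identical to Crygd and 59.3% identical to Crygb. Identity between pairs of Cryga to Crygf had a median of 62% and between all other pairs of the family 52.7%.

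In the eye, 7 of the 9 crystallins that could be tested were higher in sighted mice and 1 was lower, by limma with Benjamini-Hochberg adjustment over 15877 genes at 0.05. The same fit called 26.7% of all genes, 15.8% as higher and 10.9% as lower. The members had a median of 0.62, and all genes tested had a median of 0.03. The highest were Crybb2, Crygf and Crygb, and the one that fell was Crybb3, a gene that lies next to Crybb2. A whole eye was used, so more lens RNA per cell, a larger share of lens cells and expression outside the lens cannot be told apart.

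Crybb2, a basic beta crystallin that is the most abundant of its group in the adult lens, stood at 0.81, 1.64, 1.72, 1.58, 0.81 and 1.50 in replicates 1 to 6. Every replicate lay above 0, and replicates 1 and 5 were the lowest and nearly equal. Its mean was 1.34 ± 0.42 (SD, n = 6), which is 2.54-fold, with an adjusted p of 0.000322 by limma. Crybb3, another basic beta crystallin, stood at -0.32, -0.60, -0.38, -0.56, -0.64 and -0.79. All 6 replicates lay below 0, so the values of the 2 genes did not overlap. The mean of Crybb3 was -0.55 ± 0.17 (n = 6), which is 1.46-fold lower, with an adjusted p of 0.00113 by limma. The difference between the 2 genes within a replicate was 1.89 ± 0.48 and ran from 1.13 to 2.29.

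The 250 bases before the starts of these 2 genes are given for comparison, since their values went in opposite directions. Capitals again mark a searched motif.
Crybb2: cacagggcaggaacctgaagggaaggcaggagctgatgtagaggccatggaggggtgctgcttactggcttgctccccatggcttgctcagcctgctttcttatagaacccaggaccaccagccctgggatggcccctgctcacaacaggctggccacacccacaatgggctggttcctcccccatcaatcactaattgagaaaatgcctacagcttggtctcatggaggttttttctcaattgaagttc
Crybb3: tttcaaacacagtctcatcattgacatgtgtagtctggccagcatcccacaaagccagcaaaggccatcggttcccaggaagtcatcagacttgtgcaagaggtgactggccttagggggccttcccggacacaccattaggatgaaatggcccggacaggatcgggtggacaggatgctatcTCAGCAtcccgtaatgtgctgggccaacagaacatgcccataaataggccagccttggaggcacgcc
They lie at Crybb2 chr5:113070118-113070367, minus strand; Crybb3 chr5:113081585-113081834, minus strand. The window of Crybb3 held TGCTGA once, on the other strand and thus written as its reverse complement, TCAGCA. None of the searched letters was found in the window of Crybb2, the member with the highest ratio.

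Among the gamma crystallins, Crygf, whose product is a fibre cell protein, stood at 0.36, 1.33, 1.73, 1.80, 0.23 and 0.91 in the 6 replicates. It lay above 0 throughout and spread more than Crybb2. Its mean was 1.06 ± 0.67 (n = 6), with an adjusted p of 0.00850 by limma. Crygb, another fibre cell gamma crystallin, stood at 0.13, 1.20, 1.52, 1.33, 0.14 and 0.85. Replicates 1 and 5 were close to 0 and the other replicates clearly above it. Its mean was 0.86 ± 0.61 (n = 6, adjusted p = 0.0141 by limma). Crygb was the only member with 2 probes, and these gave means of 0.80 and 0.93, both past the threshold when probes were tested singly. Crygs, the gamma crystallin of the adult lens, stood at 0.0045, 0.79, 1.11, 1.01, 0.03 and 0.75, again with replicates 1 and 5 lowest. Its mean was 0.62 ± 0.48 (n = 6, adjusted p = 0.0239 by limma).

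Crygn, the distant member, stood at 0.04, 0.34, 0.80, 0.51, -0.20 and 0.54 and did not pass the test. Its mean was 0.34 ± 0.36 (n = 6, adjusted p = 0.0855 by limma). Crygd had both arrays of a pair in only 3 replicates, at -2.50, -1.05 and -0.50 in replicates 4 to 6, and was not tested. All 3 values lay below 0, unlike those of Crygf and Crygb, and they spread over more than the whole range of either gene. On its single arrays, the 2 values from replicates 1 and 3 were 1.00 and 0.59, both above 0. On arrays 7, 8, 11 and 12 Crygd stood at the whole numbers -2, -3, -1 and 0. Ratios do not show how strong its signal was, so no direction is read for Crygd. Crygd, Cryge and Crygf are close copies, and how far a cDNA probe tells them apart was not tested.

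The acidic beta crystallins had means between 0.56 and 0.67, with that of Crygs among them. Cryba4 stood at 0.17, 0.85, 1.21, 0.85, 0.16 and 0.75, with a mean of 0.67 ± 0.42 (n = 6, adjusted p = 0.00973 by limma). Cryba2 stood at 0.08, 0.85, 0.92, 0.91, -0.06 and 0.66, with a mean of 0.56 ± 0.44 (n = 6, adjusted p = 0.0250 by limma). Cryba1, which gives the A3 and A1 proteins by alternative starts of translation, stood at -0.12, 0.85, 0.87, 0.80, 0.19 and 0.75. Its mean was 0.56 ± 0.42 (n = 6, adjusted p = 0.0222 by limma). These acidic genes stayed between 0.66 and 1.21 in replicates 2, 3, 4 and 6 and between -0.12 and 0.19 in replicates 1 and 5. The calls of Cryba1, Cryba2 and Crygs were lost when replicate 2, 3, 4 or 6 was left out, with adjusted p-values up to 0.0724, 0.0801 and 0.0743 by limma, which left 4 members higher.

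**Figure D1:**
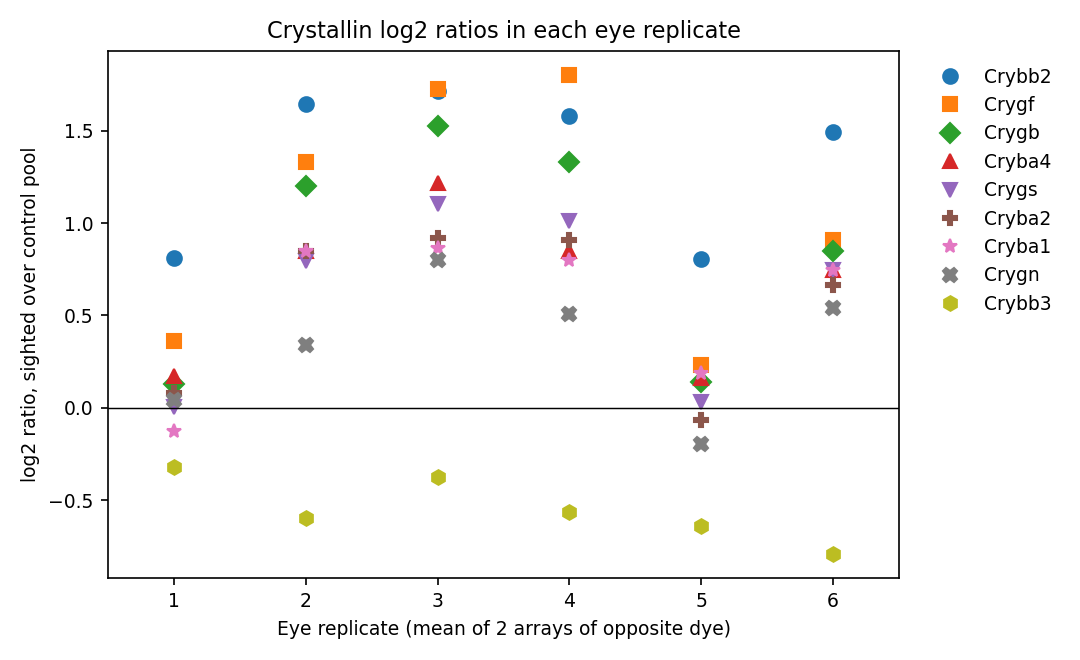
Log2 ratio of sighted over control RNA in the 6 eye replicates, with 1 symbol per tested crystallin gene. Crybb2 runs from 0.81 to 1.72 and Crybb3 from -0.79 to -0.32, and the genes other than Crybb3 are lowest in replicates 1 and 5.

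The members were ordered by their mean, and each was compared with the next by an exact two-sided sign-flip permutation test over the 6 replicates. None of the 8 neighbouring pairs passed after Benjamini-Hochberg adjustment. The smallest p that 6 replicates allow is 0.03125, and it was reached by Crygf over Crygb and by Crygn over Crybb3, each with an adjusted p of 0.125. A pair could pass only if most of the 8 pairs reached that smallest p, so the adjusted test could hardly separate any pair. The order was taken from the same means, and a pair that did not pass is not shown to be equal. Crygf lay above Crygb by 0.20 ± 0.15 in 6 of 6 replicates, and Crygn above Crybb3 by 0.89 ± 0.40 in 6 of 6. Crybb2 lay above Crygf by 0.28 ± 0.33 in 4 of 6 replicates, so the top of the order was not separated. The acidic members and Crygs followed each other by 0.0042 to 0.06, less than the SD of those differences.

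Replicates 1 and 5 were the lowest for 8 of the 9 members with 6 replicates, and Crybb3 was the exception. Of 14878 genes with 6 replicates, 6.44% had replicates 1 and 5 lowest. The same pattern was present on the arrays of each dye: arrays 1 and 9 were lowest among those with sighted RNA in Cy5, and arrays 2 and 10 among those with it in Cy3, for 8 of 9 members. Median values over the members were 0.08 and 0.14 in replicates 1 and 5 and 0.75 to 1.11 in the others. In those others Crybb2 ran from 1.50 to 1.72, Crygf from 0.91 to 1.80 and Crygn from 0.34 to 0.80. The pattern was noticed in these same values and is given as a description. With replicate 5 alone left out, Crygn passed too (adjusted p = 0.0288 by limma) and 8 members were higher.

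**Figure D2:**
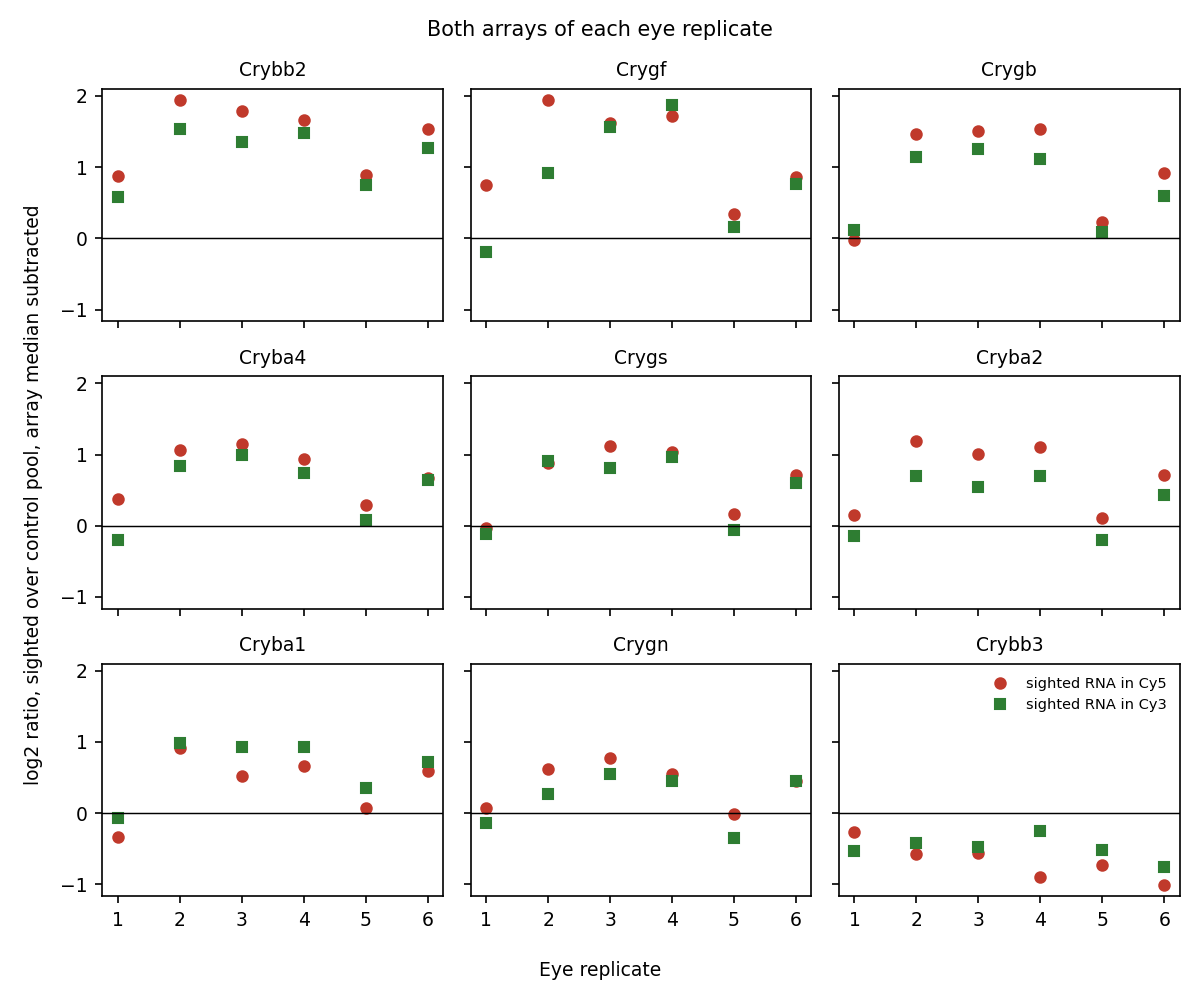
Log2 ratio on the 2 arrays of each eye replicate, 1 panel per tested crystallin gene, with each array's median subtracted and the dye of the sighted RNA shown by colour and shape. Both arrays of replicates 1 and 5 lie low for 8 of the 9 genes, and Crybb3 lies below 0 on every array.

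Other tissues of the eye were read in the same replicates from marker lists. For comparison, the eye fit called 15.8% of all genes as higher and 10.9% as lower. The 8 rod genes tested were all higher, but the sign of the ratios was read from rod genes, so this direction is no result. Their median was 4.60 to 5.11 in every replicate, and replicates 1 and 5 were at 4.93 and 4.74. The 11 genes of cornea and surface epithelium tested were all lower, with a median of -1.76 in replicate 1, -1.05 in replicate 5 and -1.07 to -0.75 in the others. Of 11 muscle genes 10 were lower, with a median of -0.49 in replicate 1, -0.83 in replicate 5 and -1.17 to -0.76 in the others. All 4 red cell genes were lower, with medians of -2.25 and -0.81 in replicates 1 and 5 and -2.40 to -0.97 in the others. Of the immune genes 8 of 10 were lower and of 2 pigment genes 1 was higher. Their part in the crystallin values was not tested.

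The ratio also depended on the dye, and the eye arrays had medians from -0.06 to 0.54 as deposited. Crybb2 had a mean of 1.73 on the 6 arrays with sighted RNA in Cy5 and 0.95 on the 6 with it in Cy3. With arrays centred these were 1.45 and 1.16. Crybb3 had -0.39 and -0.70 as deposited and -0.67 and -0.49 with arrays centred, below 0 each time. Crygf had 1.49 and 0.64 as deposited and 1.21 and 0.85 with arrays centred. With sighted RNA in Cy3 alone and as deposited, Crybb2 was the only member called higher, and with Cy5 alone 8 members were higher and Crybb3 was not called. The calls over all genes moved in the same directions, with 553 higher and 3394 lower of 16311 for Cy3 alone and 6072 higher and 508 lower of 16301 for Cy5 alone. Centring kept 7 members higher and 1 lower and left differences between the dyes, whose cause was not tested.

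Several probes of these genes carry numbers next to each other. Of the 11 probes, 6 are numbered from 15678 to 15687, as is a probe of the alpha crystallin Cryaa. The other 12 tested probes in that stretch and up to 6 numbers on either side had a median of 0.03, and 1 was higher and 1 lower. The lower one, Slurp1, chosen after its values were seen, stood at -1.17 ± 0.43 (n = 6), and its number lies between those of Cryba1 and Cryba2. All 5 tested crystallin probes within the stretch were higher. Of the 5 outside it, the second probe of Crygb, numbered 19586, and those of Crygf and Cryba4, numbered 20002 and 2035, were higher. The probe of Crygn, numbered 6860, was not called, and that of Crybb3, numbered 18396, was lower. Whether these numbers follow the position on the array is not given in the sources used here.

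In the brain no crystallin passed the test, where 9 members could be tested. The limma fit called 0.00621% of 16114 genes, and 4.11% had an unadjusted p under 0.05. Among the latter was 1 member, Crygs, which has a mean above 0 in eye too. It stood at 0.15, 0.54, 0.21, 1.29 and 0.85 in the 5 replicates with a value, all above 0. Its mean was 0.61 ± 0.47 (n = 5, adjusted p = 0.959 by limma), close to its mean in eye. With sighted RNA in Cy5 its mean on single arrays was 1.25, and in Cy3 it was -0.06, so the value came from 1 dye orientation. Crybb2 stood at -0.41, -0.08, 0.11, -0.24 and -1.90, and replicate 5 was the lowest. Replicate 6 has no value because array 12 was at the ceiling, and its other array, 11, stood at -2.81, beside -2.19 and -1.60 on the arrays of replicate 5. The mean was -0.50 ± 0.80 (n = 5), -0.16 without replicate 5 and -0.71 over single arrays. Crybb3 had a mean of -0.00017 ± 0.15 (n = 6) and Crygb of -0.03 ± 0.19 (n = 6). The 2 probes of Crygb differed in brain, at -0.70 and -0.10 in replicate 1 and at 0.70 and -0.70 in replicate 6, and their average hides this spread. Crygf was at 0.25 ± 0.69, Cryba4 at -0.28 ± 0.48, Cryba1 at -0.11 ± 0.53, Cryba2 at -0.0010 ± 0.46 and Crygn at 0.08 ± 0.16, each over 6 replicates and with values on both sides of 0.

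In the heart no crystallin passed the test either, and 5 members could be tested. The fit called 0% of 12796 genes, and 7.98% had an unadjusted p under 0.05. Of the crystallin values on the heart arrays, 31.8% were missing or at the ceiling of the scale, against 3.03% in eye and 5.30% in brain. Crybb3 was the member with an unadjusted p under 0.05, at -0.74, -0.89, -0.24 and -0.54 in the 4 replicates. Its mean was -0.60 ± 0.29 (n = 4, adjusted p = 0.580 by limma), a size near that in the eye. The 2 arrays of replicate 1 differed, at 0.232 with sighted RNA in Cy5 and -1.715 in Cy3, and the other arrays lay below 0. Crygb stood at 0.14, -0.35 and -1.45, Cryba1 at -0.08, 0.25 and 0.75, and Crygn at -1.50, -1.51 and 2.15, in 3 replicates each. Cryba4 stood at -0.01, -0.54, -0.44 and 1.16, and these 4 members had values on both sides of 0. Of the 2 probes of Crygb only 1, numbered 19586, had heart replicates with both arrays, at 0.14, -0.35 and -0.82. The mean of that probe was -0.35 ± 0.48 (n = 3), and the averaged -1.45 of replicate 3 mixes both probes. Crybb2 had no heart replicate with both arrays, and Cryba2, Crygf and Crygs had 1 each.

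**Figure D3:**
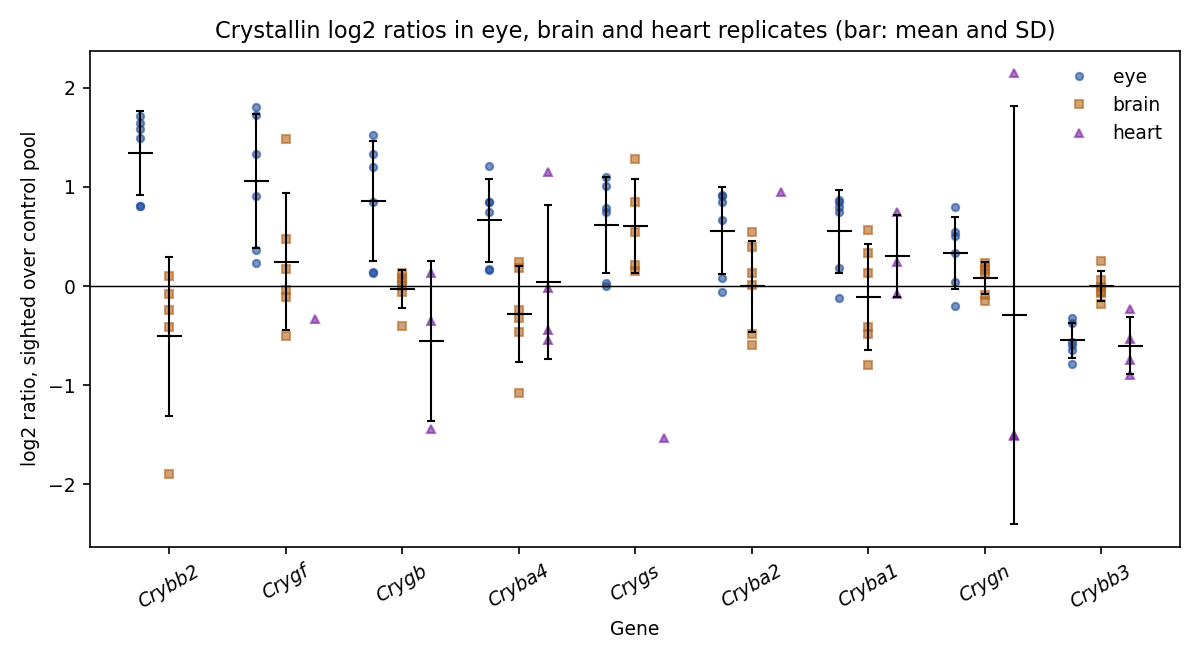
Log2 ratio of each crystallin gene in the replicates of eye, brain and heart, with the mean and SD where an organ had at least 3 replicates. Crybb2 lies above 0 in every eye replicate and between -1.90 and 0.11 in brain, and Crybb3 lies below 0 in every replicate of eye and heart and around 0 in brain.

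The eye ratio was set against that of brain by a limma test of the difference, which called 17.4% of 15503 genes, 10.7% as higher in eye and 6.68% as lower. Of 9 members 3 were higher in eye and 1 was lower. Crybb2 differed by 1.85 (SE 0.33, adjusted p = 0.00169 by limma), Cryba4 by 0.95 (SE 0.23, adjusted p = 0.0121) and Crygb by 0.89 (SE 0.23, adjusted p = 0.0161). Crybb3 differed by -0.55 (SE 0.10, adjusted p = 0.00173 by limma). The differences of Crygf, 0.81 (SE 0.34), Cryba1, 0.67 (SE 0.25), and Cryba2, 0.56 (SE 0.23), did not pass, nor did Crygn at 0.26 (SE 0.15). Crygs differed by 0.0079 (SE 0.26). The call of Crybb2 was lost with ceiling values kept (difference 3.39, adjusted p = 0.146 by limma), that of Cryba4 without replicate 3 or 4 of both organs (adjusted p = 0.0505 and 0.0586), and that of Crygb without replicate 2 or 4 (adjusted p = 0.0563 and 0.0679). Without replicate 4 only Crybb2 and Crybb3 were called, and without replicate 5 Crygf, Cryba1 and Cryba2 passed too, which made 7.

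Between eye and heart, limma called 14.8% of 12588 genes, 8.48% as higher in eye and 6.28% as lower, and 1 of 5 members. Crygb was higher in eye by 1.42 (SE 0.40, adjusted p = 0.0395 by limma). This rests on the averaged probes, with a heart mean of -0.55, whereas probe 19586 alone had a heart mean of -0.35. The difference for that probe alone was not tested. Cryba4 differed by 0.63 (SE 0.33), Crygn by 0.63 (SE 0.68), Cryba1 by 0.25 (SE 0.26) and Crybb3 by 0.05 (SE 0.15), and none of these passed. The call of Crygb was lost when replicate 2, 3, 4 or 6 was left out, and without replicate 3 its difference was 0.84 and Crygn was called instead.

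Other lens genes were counted in the same way in eye. Of 24 listed structural and fibre genes 11 could be tested, of which 6 were higher and 3 lower, with a median of 0.29. That is 81.8% called, against 26.7% of all genes in eye. Lenep, a lens epithelial protein, had a mean of 1.20 ± 0.53, and Lim2, a membrane protein of fibre cells, had 0.56 ± 0.30. Cryaa, the alpha A crystallin chaperone, was at 0.50 ± 0.32, and Fabp5, a fatty acid binding protein, at 0.65 ± 0.44. The lower ones were Gja1, a connexin of lens epithelium and many other tissues, at -0.50 ± 0.25, Cryl1 at -0.44 ± 0.14 and Crym at -0.42 ± 0.14. Cryl1 and Crym are enzymes found in many tissues, and how much of their RNA came from the lens was not measured. Aldh1a1 at -0.18 ± 0.14 and Vim at -0.17 ± 0.18 did not pass (n = 6 for each gene). Replicates 1 and 5 were the lowest for 7 of these 11 genes.

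Of 23 listed transcription factors and growth factor receptors of the lens 12 could be tested, of which 1 was higher and 2 lower, with a median of -0.0057. That is 25% called, near the 26.7% of all genes in eye. Jag1, a Notch ligand, was at 0.25 ± 0.15, Notch2, its receptor, at -0.37 ± 0.24, and Pax6, which acts in lens and retina, at -0.34 ± 0.23. Etv5 at 0.19 ± 0.19 and Mafg at 0.13 ± 0.13 did not pass (n = 6 for each gene). In brain and heart, limma called 0 genes of either list.

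Genes that followed the crystallins over the 12 eye arrays were ranked by Pearson's r with the median of 8 members, all tested ones but Crybb3, after each dye orientation was centred. Each of the 8 members had an r of 0.915 to 0.983 with the median of the others, and Crybb3 had 0.256. Over 7158 named genes the highest r were those of Hspb1 at 0.987, Fabp5 at 0.980, Tcp11 at 0.966, Lenep at 0.951, Svbp at 0.934, Rplp0 at 0.924, Pabpc1 at 0.910 and Rps19 at 0.909. These arrays share the pooled control RNA and the arrays of a pair may share a sample, so r is a description. Hspb1, a small heat shock protein related to the alpha crystallins, stood at -0.76, 0.14, 0.35, 0.08, -0.76 and -0.01. Its profile over replicates ran with that of the crystallins, but its mean of -0.16 ± 0.48 (n = 6, adjusted p = 0.521 by limma) lay below 0. Tcp11 stood at 0.62, 1.07, 1.38, 1.26, 0.55 and 0.97, above 0 in every replicate and lowest in replicates 1 and 5. Rplp0, a ribosomal protein gene, was lower with a mean of -0.67 ± 0.26 (n = 6) and had its lowest values in the same replicates.

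**Figure D4:**
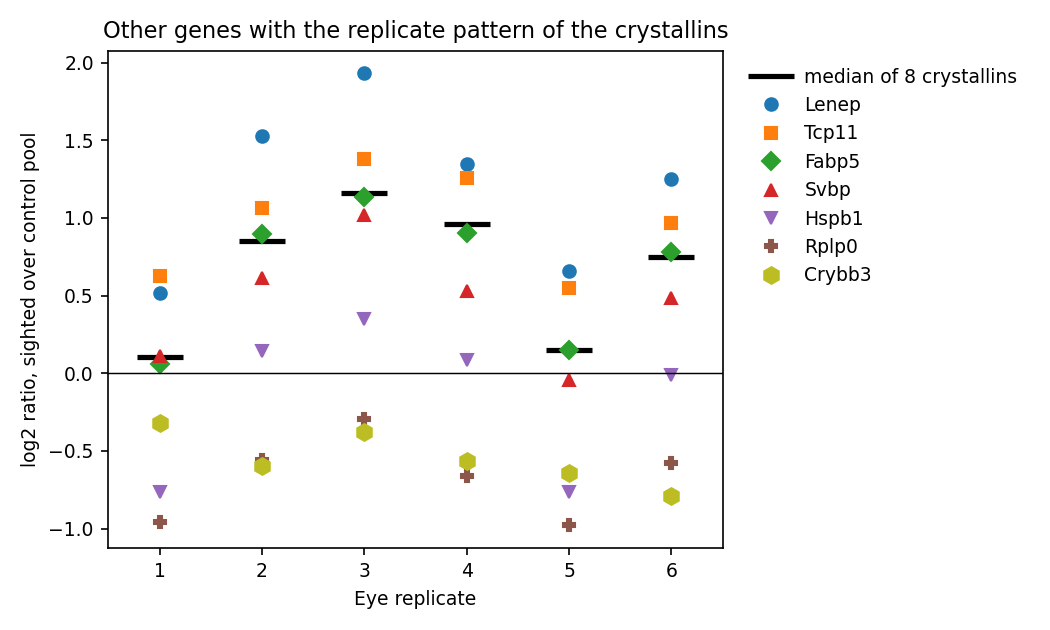
Log2 ratio in the 6 eye replicates of Crybb3 and of 6 of the 8 genes whose profile was most like that of the crystallins, with the median of 8 crystallins as a bar. Hspb1 and Rplp0 share the low values of replicates 1 and 5 with the crystallins although their means are -0.16 and -0.67.

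The genes were last set in chromosome order, because Pde6b, the gene that carries the mutation of the controls, lies on chromosome 5 with Cryba4, Crybb1, Crybb2, Crybb3 and Crygn. In RefSeq, 53 protein-coding genes lie between Pde6b and Cryba4 and 66 between Pde6b and Crybb3. Of the 26 other genes between Pde6b and Crybb3 that were tested in eye, 0 were higher and 2 were lower by limma, Pcgf3 at -0.33 ± 0.25 and Pxmp2 at -0.44 ± 0.22 (n = 6). Their median was 0.02 and 7.69% were called, against 26.7% of all genes in eye. Crygb, Crygd, Crygf and Cryba2 lie on chromosome 1, Cryba1 on 11 and Crygs on 16, and members of chromosome 1 and chromosome 5 both include genes that were higher. Of the 41 tested genes nearest to the crystallins on any chromosome, up to 3 on each side, 2 were higher and 5 lower. This is 17.1%, against 26.7% of all genes in eye, and their median was 0.00026. Genes without a test were passed over, so these lay 1 to 21 genes away from the member or cluster. The higher neighbours, Senp2 at 0.34 and Dnajb11 at 0.35, lie near Crygs. The lower ones were Acadl at -0.59, Lancl1 at -0.41, Cyp27a1 at -0.37, Myl1 at -0.29 and Myo18a at -0.30.

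**Figure D5:**
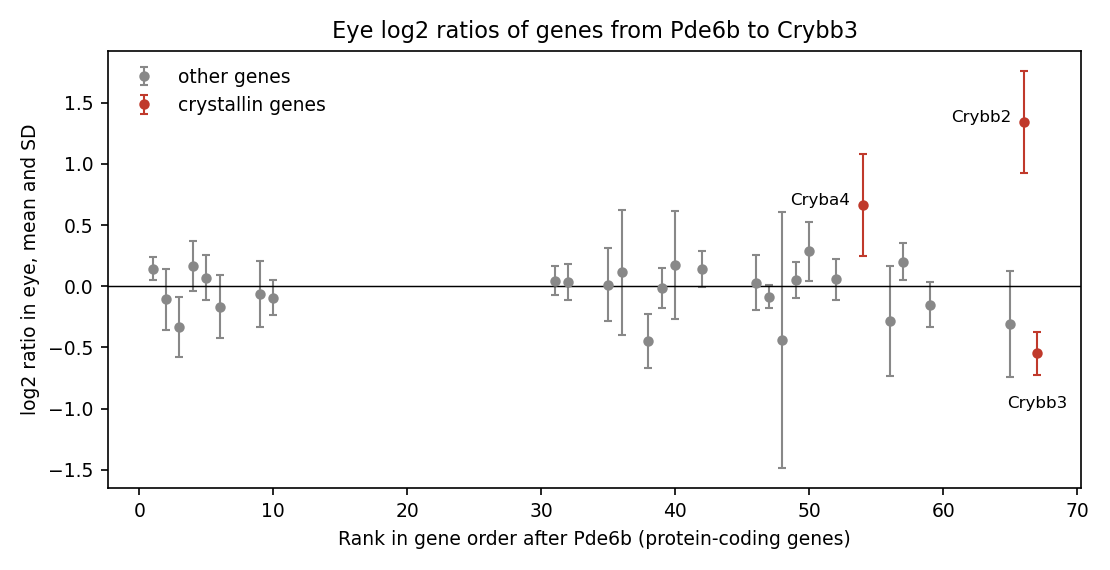
Mean and SD of the eye log2 ratio for genes tested between Pde6b and Crybb3, by their rank in gene order, with crystallin genes in red. Cryba4 and Crybb2 lie at 0.67 and 1.34 and Crybb3 at -0.55, and the other 26 genes, in grey, have a median of 0.02.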

How the data were processed

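The authors deposited a log2 ratio per probe and 2-colour cDNA array, likely Cy5 over Cy3, a direction read from the rod genes. Per the labels' protocols, total RNA was reverse transcribed and the cDNA was coupled to Cy3 or Cy5 afterwards. How arrays were scanned and normalized is not given in the sources used here. Both channels of brain array 3 are labelled Cy5, and its sighted RNA was taken to be in Cy5. The source of brain array 5 is labelled only as sighted.

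Ratios were turned to sighted over control. Repeated ceiling values above 15 (4170 in all) were set to missing, and each odd array was averaged with the next even one, of opposite dye, into a replicate. After each dye's mean was removed, the mean correlation within a pair was 0.0914 for eye, 0.00571 for brain and -0.0422 for heart. Between arrays of different pairs and opposite dye it was -0.0186 for eye, -0.00127 for brain and 0.0141 for heart. In heart paired arrays were thus less alike than others and in brain hardly more, so the pairing there rests on array numbers alone. Of 20794 probes, 12771 carried 1 symbol, 0 several and 8023 none; symbols came from the platform annotation, and probes of a gene were averaged. A gene could miss 1 replicate.

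In each organ limma 3.58.1 (R 4.3.3) tested whether the mean differed from 0, two-sided, with Benjamini-Hochberg adjustment over all genes at 0.05. The test leaves out the spread of the control mice, which were pooled. Organs were compared in a limma fit of 2 groups. On simulated data with 100 genes changed by 1 on the log2 scale, the eye test recovered 98% of these 100 genes (15877 tested), the brain test 99% (16114 tested) and the heart test 43% (12796 tested), with 8, 7 and 12 false calls. Another 100 genes were changed by 2 in the same run. The changed genes were drawn from all tested genes, with independent normal noise. These rates are therefore not those for the crystallins, whose SD in brain reached 0.80 and whose eye means were mostly below 1. The labels do not tie replicate numbers to animals across organs, and eye and brain replicates of the same number had correlations of -0.0197 to 0.0184.

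The members and lists were chosen with earlier results of these data known. Every member with a value is named. Named besides are up to 4 called genes each way and 2 others per lens list, the called ones among the nearest 3 tested neighbours on each side of a member (the rule asked for all of them), and the 8 genes most like them with an SD over arrays of at least 0.3. Promoters came from RefSeq (GRCm38.p6), and pairs were aligned with Biopython 1.88. Alternatives were single arrays, the pair as a random block, centring, scaling, missing and ceiling values, single probes, robust moderation, 1 dye, a spread filter, the replicate block and each replicate left out.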

Additional observations from a re-analysis of the deposited data

Results flagged for a closer look

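Crybb2 in brain was set apart by replicate 5 at -1.90, far below the other 4. Replicate 6 was not among them, because array 12 was at the ceiling, and its array 11 stood at -2.81. Crygb in brain was set apart by replicate 1 at -0.40, below the other 5, where its 2 probes stood at -0.70 and -0.10. These 2 came from 20 groups of crystallin values checked for a replicate far from the others, and chance flags about 1 in 20 groups.

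The ratio differed between eye and brain, by the limma test of the difference, for Crybb2 by 1.85, for Cryba4 by 0.95, for Crygb by 0.89 and for Crybb3 by -0.55. Between eye and heart it differed for Crygb by 1.42, a value of averaged probes of which only 1 had complete heart replicates.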

How the results depend on the processing

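Of 158 values of single members in eye under alternatives, 133 kept direction and side of the threshold, 19 fell short of it, 5 passed it and 1 turned, Crygn to -0.0082 with sighted RNA in Cy3 only. These counts include the unplanned setting without replicates 1 and 5, under which Crygn passed and the other tested members kept their side. Genes called in eye numbered 4239, against 2654 with every array on its own, 6580 with sighted RNA in Cy5 only (6072 higher and 508 lower) and 2142 without replicates 1 and 5, which were picked by the crystallins' own values, so that this setting supports nothing about them. With sighted RNA in Cy3 only 553 were higher and 3394 lower. The 7 higher members became 1 with Cy3 only, 3 without the 20% of genes with most spread, where 4 members were left to test, and 4 to 8 when each replicate was left out. The 1 lower member became 0 with Cy5 only. Between eye and brain, 4 calls became 3 with ceiling values kept, 2 to 7 when each replicate was left out and 7 without replicates 1 and 5, and with the replicate number as a block 4 were called. Between eye and heart, the 1 call became 0 with ceiling values kept, 0 where every replicate was needed, 0 to 1 when each replicate was left out, and 0 with the replicate block. Replicate numbers were not found to pair organs, and 0 members were called in brain or heart under any alternative run. The causes were not tested. Missing values limit the heart most.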
